A study of Mus musculus with 11 samples.

Results

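The expression of 9 genes of cardiac repolarising potassium channels was examined in the hearts of 11 mice, namely Kcnd2, Kcnd3, Kcnip2, Kcna5, Kcnq1, Kcnh2, Kcnj2, Kcnj3 and Kcnj5. They were taken by symbol from a deposited table of 22608 genes, after its Ensembl identifiers had been matched to GENCODE mouse release M21, and each of the 9 symbols had a single row. RNA from the ventricle was sequenced in 4 groups. Wild-type animals received vehicle (WT VEH, 2 mice) or JZL184 (WT JZL184, 3 mice), and complete deletion animals likewise received vehicle (CD VEH, 3 mice) or JZL184 (CD JZL184, 3 mice). In CD animals 1 of the 2 copies of a chromosome 5 interval is missing, the mouse counterpart of the region lost in Williams-Beuren syndrome, and the WT mice were littermates. All were males of 8 to 16 weeks on a C57BL/6J background, to which the CD line had been backcrossed for 9 generations. JZL184 irreversibly blocks monoacylglycerol lipase, which breaks down the endocannabinoid 2-arachidonoylglycerol, and was injected daily at 8 mg/kg for 10 days. Controls are named untreated in 1 field of the labels, but vehicle in the titles and in the study's methods. The deletion is carried in every cell of the animal.

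Between 69660232 and 92251443 counts were assigned to genes per mouse, and each member had between 742 and 13151 counts in every mouse. Values are given as CPM, which are counts scaled to library size with edgeR's TMM factors, and the letter of a mouse is that of its column in the table. Genes of the deleted interval matched the genotype label of each mouse, with 95.2 to 129 CPM of Gtf2i and 50.9 to 73.1 CPM of Baz1b in the 5 WT mice, against 51.2 to 68.2 CPM and 25.7 to 34.2 CPM in the 6 CD mice. No pair of mice of a group differed by so little as sampling noise (chi-square per gene of 22.6 to 125). The share of counts from the mitochondrial genome was 39.4% to 41.2% in WT VEH, 45.0% to 46.6% in WT JZL184, 43.5% to 44.7% in CD VEH and 36.4% to 40.1% in CD JZL184. It was higher in every WT JZL184 and CD VEH mouse than in any WT VEH or CD JZL184 mouse. Without those genes, no log2 fold-change of a member moved by more than 0.0067. That removal tests only the scaling, and whether the members' levels go with this share was not tested. The ventricular origin was checked with markers of atrial myocytes. Myl7 did not exceed 0.521 CPM, Sln 0.188 CPM, Bmp10 0.025 CPM and Myl4 1.69 CPM in any mouse. Nppa, the natriuretic peptide gene that ventricles express too, ran from 49.2 to 220 CPM.

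Repolarisation ends the cardiac action potential through potassium currents that open at different times. In the mouse ventricle the early phase is carried by the fast transient outward current (Ito), built from Kv4 pore subunits and the accessory subunit KChIP2, and by Kv1.5 channels, among others. The delayed rectifiers IKr and IKs, central to repolarisation in larger mammals, have a minor role in the adult mouse. The inward rectifier IK1 sets the resting potential, and the acetylcholine-activated current IKACh, best known from atria and the sinoatrial node, is opened by G protein subunits downstream of inhibitory G protein-coupled receptors.

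The 9 members lie on 8 chromosomes of GRCm38. Kcnd2 (6:21215503-21729805) and Kcna5 (6:126532551-126535412) share chromosome 6, and Kcnh2 (5:24319589-24351604) is on the chromosome of the deletion, outside the deleted interval. An exon overlaps that of a gene on the opposite strand for 3 members, namely Kcnq1 with Kcnq1ot1, Kcnd3 with Kcnd3os and Kcnj3 with Gm26794. None of those partners was found in the deposited table by its Ensembl identifier, so they could not be analysed. Whether strand was used in counting is not given in the sources used here, so reads from both strands cannot be told apart for these members. RefSeq promoters on GRCm38.p6 were at hand for 8 members, all except Kcnq1. The 250 bases before the start are printed 5′ to 3′ for the 5 of them that passed the test in both comparisons of CD JZL184 with CD VEH and WT JZL184, where Kcnd2, Kcnd3, Kcnj3 and Kcnj5 were higher and Kcna5 was lower. Capitals mark the motifs searched on both strands, which were the TATA box TATAAA, the GC box GGGCGG, the GATA site AGATAA, the E box CANNTG, the M-CAT element CATTCC, the Iroquois site ACANNTGT, the NKX2-5 site CAAGTG (itself an E box), the CArG box and the MEF2 site. The window of Kcnd3 lies within Kcnd3os. The windows were, in the order printed, chr6:21215096-21215345 on the plus strand, chr3:105451640-105451889 on the plus strand, chr2:55435720-55435969 on the plus strand, chr9:32344345-32344594 on the minus strand and chr6:126535556-126535805 on the minus strand.
Kcnd2: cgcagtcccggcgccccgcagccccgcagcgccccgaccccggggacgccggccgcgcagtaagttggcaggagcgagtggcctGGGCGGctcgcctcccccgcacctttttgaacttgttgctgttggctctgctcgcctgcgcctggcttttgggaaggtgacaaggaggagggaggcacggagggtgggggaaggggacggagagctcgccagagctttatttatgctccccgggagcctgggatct
Kcnd3: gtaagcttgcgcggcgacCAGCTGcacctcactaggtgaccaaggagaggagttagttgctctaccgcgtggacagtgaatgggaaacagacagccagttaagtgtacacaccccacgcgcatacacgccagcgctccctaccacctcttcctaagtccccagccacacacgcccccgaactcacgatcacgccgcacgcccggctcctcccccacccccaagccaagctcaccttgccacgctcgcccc
Kcnj3: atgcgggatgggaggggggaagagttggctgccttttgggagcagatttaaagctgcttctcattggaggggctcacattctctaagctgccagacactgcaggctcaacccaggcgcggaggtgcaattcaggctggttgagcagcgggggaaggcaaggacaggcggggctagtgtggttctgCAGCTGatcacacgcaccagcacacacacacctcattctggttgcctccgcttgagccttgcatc
Kcnj5: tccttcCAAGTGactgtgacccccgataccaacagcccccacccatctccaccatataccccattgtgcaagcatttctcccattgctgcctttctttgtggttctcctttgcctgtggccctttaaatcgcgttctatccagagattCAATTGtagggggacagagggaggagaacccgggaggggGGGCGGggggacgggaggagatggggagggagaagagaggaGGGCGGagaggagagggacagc
Kcna5: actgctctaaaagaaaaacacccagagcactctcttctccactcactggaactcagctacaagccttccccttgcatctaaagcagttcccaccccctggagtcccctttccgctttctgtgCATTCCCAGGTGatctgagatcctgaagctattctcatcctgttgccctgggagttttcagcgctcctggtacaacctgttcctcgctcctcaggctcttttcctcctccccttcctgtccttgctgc

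An E box stood in 4 of the 5 windows, all except that of Kcnd2, and in 66.2% of the 32851 promoters compared. Of the windows not printed, those of Kcnip2 and Kcnj2 held an E box and that of Kcnh2 did not. The window of Kcnd2 held a GC box, and that of Kcnj5 held 2 GC boxes and an NKX2-5 site, found in 32.7% and 11.6% of promoters. The window of Kcna5 held an M-CAT element directly before its E box, and this element occurs in 12.6% of promoters. No motif was shared by the windows of the 4 higher members. The G and C content was 68.8% for Kcnd2, 62.8% for Kcnd3, 58.4% for Kcnj3, 58.0% for Kcnj5 and 53.2% for Kcna5. The median was 52.4% over the 32851 promoters compared, which are not all promoters of the genome. A match describes letters in a window, not a bound site.

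Kcnip2 was the most abundant member per transcript length. Over the 11 mice it had a mean level of 55.3 CPM per kb of its longest coding transcript (48.9 to 62.1). Kcnj5 followed with 12.8 CPM per kb (8.89 to 16.8), and was above Kcnq1 (7.25 to 11.7) in each of the 11 mice, although the ranges overlapped. The next 5 genes lay close together, with mean levels of 9.10 CPM per kb for Kcnq1, 7.80 for Kcnh2, 7.33 for Kcnj3, 6.61 for Kcnj2 and 5.99 for Kcna5. Their ranges over mice overlapped, so neighbours in this order did not differ beyond their spread over mice, although Kcnq1 was above Kcnh2 in 10 mice. Kcnd2 came next with 3.12 CPM per kb (2.03 to 4.10), below Kcna5 in every mouse, and Kcnd3 last with 1.95 CPM per kb (1.47 to 2.55). The ranges of these Kv4 genes overlapped, but Kcnd2 was above Kcnd3 in each of the 11 mice. Kcnip2 was thus above both Kv4 genes in every mouse. The order depends on the transcript length used, since the table gives 1 value per gene. With the median coding transcript, which for Kcnq1 is a partial model of 294 nt, Kcnq1 moved to 93.8 CPM per kb and rank 2, Kcnip2 to 191 CPM per kb and Kcnd3 to 5.23 CPM per kb, above Kcnd2. With the union of exons, Kcnq1 had 6.74 CPM per kb and rank 5.

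**Figure D1:**
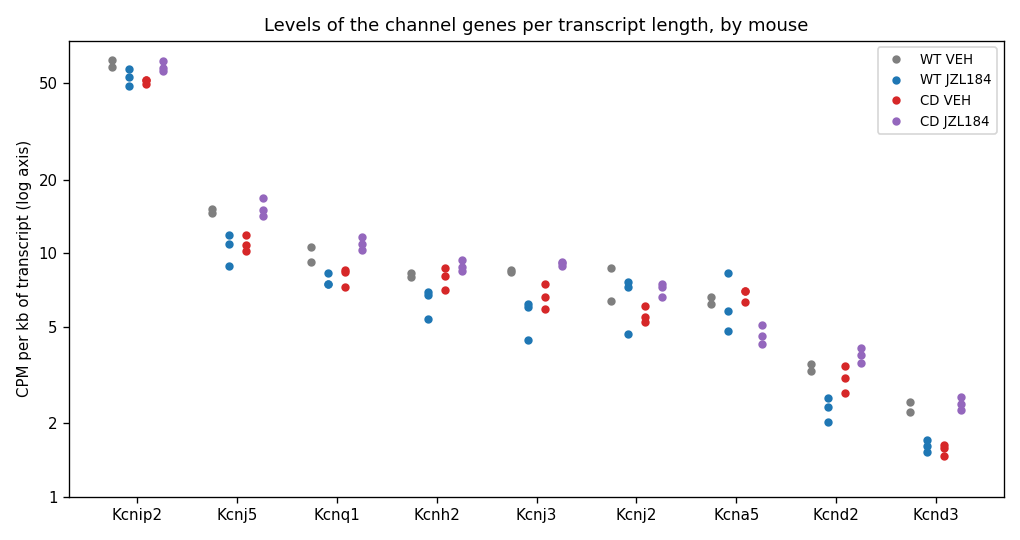
Level of each member in CPM per kb of its longest coding transcript (vertical log axis), with a point for each of the 11 mice, coloured by group and ordered by the mean. Kcnip2 stood above every other member in all mice, and Kcnd3 had the lowest mean, 1.95 CPM per kb.

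Kcnd3 encodes Kv4.3, a pore-forming subunit of Ito. It had 17.5 and 15.9 CPM in WT VEH mice C and D. It had 12.3, 11.6 and 10.9 CPM in WT JZL184 mice A, B and D, and 11.4, 11.7 and 10.5 CPM in CD VEH mice A, C and E. In CD JZL184 mice A, C and E the level was 18.3, 16.3 and 17.2 CPM. The WT VEH and CD JZL184 mice were high and the other 6 mice low, with no overlap between them. Kcnd3 was lower in CD VEH than in WT VEH (-0.58 on the log2 scale, SE 0.08, edgeR adjusted p = 0.00188) and lower in WT JZL184 than in WT VEH (-0.53, SE 0.08, edgeR adjusted p = 0.00232). It was higher in CD JZL184 than in CD VEH mice (0.63, SE 0.07, edgeR adjusted p = 0.00202) and than in WT JZL184 (0.58, SE 0.07, edgeR adjusted p = 0.000492). The calls in these 4 comparisons held under each alternative setting, where the highest adjusted p-values were 0.0425, 0.0389, 0.015 and 0.0084.

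Kcnd2 encodes Kv4.2, the other pore-forming subunit of Ito. Its level was 18.0 and 16.9 CPM in WT VEH, 12.0, 10.4 and 13.1 CPM in WT JZL184, 15.9, 17.7 and 13.7 CPM in CD VEH, and 21.1, 19.7 and 18.2 CPM in CD JZL184, in the same order of mice. The WT JZL184 mice were below every other mouse and the CD JZL184 mice above every other mouse, while CD VEH and WT VEH overlapped. Kcnd2 was lower in WT JZL184 than in WT VEH (-0.55 on the log2 scale, SE 0.11, edgeR adjusted p = 0.0068) and higher in CD JZL184 than in WT JZL184 (0.73, SE 0.10, edgeR adjusted p = 0.000927). It was also higher in CD JZL184 than in CD VEH (0.32, SE 0.10, edgeR adjusted p = 0.031). The difference between CD VEH and WT VEH did not pass the test (-0.15, 95% interval -0.40 to 0.10, edgeR adjusted p = 0.334). The call against CD VEH was lost without CD JZL184 mouse A (adjusted p = 0.109) or C (0.065), without CD VEH mouse A (0.0764) or E (0.119), with an offset for gene length (0.0712) and with scaling by cardiomyocyte markers (0.147). Without WT VEH mouse C, the difference between WT JZL184 and WT VEH had an edgeR adjusted p of 0.0637.

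Kcnip2 encodes KChIP2, which binds Kv4 subunits and raises their density at the cell surface. It had 140 and 149 CPM in WT VEH, 127, 117 and 137 CPM in WT JZL184, 123, 124 and 119 CPM in CD VEH and 138, 134 and 148 CPM in CD JZL184. The CD VEH mice lay below all WT VEH and CD JZL184 mice, and the WT JZL184 mice overlapped CD VEH and CD JZL184. The differences were small, at -0.24 in CD VEH against WT VEH (SE 0.08, edgeR adjusted p = 0.0318) and 0.20 in CD JZL184 against CD VEH (SE 0.07, edgeR adjusted p = 0.0417). Under JZL184 in WT mice the log2 fold-change was -0.18 (SE 0.08, edgeR adjusted p = 0.0869), and between CD JZL184 and WT JZL184 it was 0.14 (SE 0.07, edgeR adjusted p = 0.126). The call of CD VEH against WT VEH was lost in 7 of 15 alternatives, with adjusted p-values from 0.0552 to 0.361. Among them were the omission of CD VEH mouse A (0.072) or E (0.0904) and of WT VEH mouse C (0.0945) or D (0.19). The call of CD JZL184 against CD VEH was lost in 9 of 16 alternatives, with adjusted p-values from 0.0511 to 0.313, among them each of the 6 that leave out 1 mouse. Without WT JZL184 mouse D, Kcnip2 passed the test for the drug in WT mice (0.0404) and between genotypes under the drug (0.0455).

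Kcna5 encodes Kv1.5, the pore of the ultrarapid current IKur. Its level was 18.9 and 17.8 CPM in WT VEH, 16.6, 23.8 and 13.7 CPM in WT JZL184, 18.1, 19.96 and 20.1 CPM in CD VEH and 14.5, 12.2 and 13.1 CPM in CD JZL184. The CD JZL184 mice were low, and WT JZL184 mouse D lay within their range. Kcna5 was lower in CD JZL184 than in CD VEH mice (-0.55 on the log2 scale, SE 0.15, edgeR adjusted p = 0.0191), opposite in sign to the other 8 members. It was also lower in CD JZL184 than in WT JZL184 (-0.44, SE 0.155, edgeR adjusted p = 0.0417), but these groups overlapped, and without WT JZL184 mouse B the log2 fold-change was -0.19 (adjusted p = 0.157). That call was also lost without CD JZL184 mouse A (0.0524), C (0.119) or E (0.101). The call against CD VEH was lost without CD JZL184 mouse C or E (adjusted p = 0.06 for each) or CD VEH mouse E (0.0644). Neither CD VEH (0.08, SE 0.17, edgeR adjusted p = 0.735) nor WT JZL184 (-0.03, SE 0.17, edgeR adjusted p = 0.921) passed the test against WT VEH, with 95% intervals of -0.29 to 0.46 and -0.40 to 0.35.

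Kcnq1 encodes Kv7.1, the pore of IKs. It had 28.0 and 32.2 CPM in WT VEH, 22.6, 22.6 and 25.1 CPM in WT JZL184, 25.8, 25.3 and 22.0 CPM in CD VEH and 33.1, 31.3 and 35.5 CPM in CD JZL184. The WT VEH and CD JZL184 mice stood above all others. Against WT VEH, Kcnq1 was lower in CD VEH (-0.31 on the log2 scale, SE 0.09, edgeR adjusted p = 0.0279) and under JZL184 in WT mice (-0.36, SE 0.09, edgeR adjusted p = 0.0146). It was higher in CD JZL184 than in CD VEH (0.45, SE 0.08, edgeR adjusted p = 0.00351) and than in WT JZL184 (0.51, SE 0.08, edgeR adjusted p = 0.00145), and these 2 calls held under each of the 16 alternatives. The difference of CD VEH from WT VEH lost its call without CD VEH mouse E (adjusted p = 0.0911), WT VEH mouse C (0.0593) or WT VEH mouse D (0.235). That of WT JZL184 lost it without WT VEH mouse D (0.144). With scaling by cardiomyocyte markers the adjusted p-values were 0.297 and 0.26.

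Kcnh2 encodes the ERG1 pore of IKr. Its level was 34.9 and 33.8 CPM in WT VEH, 22.6, 29.2 and 28.6 CPM in WT JZL184, 33.9, 36.8 and 29.9 CPM in CD VEH and 37.2, 35.7 and 39.8 CPM in CD JZL184. The WT JZL184 mice were below every other mouse, mouse A the most. Kcnh2 was lower in WT JZL184 than in WT VEH (-0.36 on the log2 scale, SE 0.11, edgeR adjusted p = 0.0315) and higher in CD JZL184 than in WT JZL184 (0.49, SE 0.10, edgeR adjusted p = 0.00361). The difference between CD VEH and WT VEH was -0.03 (95% interval -0.28 to 0.21, edgeR adjusted p = 0.832). That between CD JZL184 and CD VEH was 0.16 (SE 0.10, edgeR adjusted p = 0.218). The call of WT JZL184 against WT VEH was lost in 6 of 15 alternatives, among them those without WT JZL184 mouse A (0.0512), WT VEH mouse C (0.157) or WT VEH mouse D (0.107). With scaling by cardiomyocyte markers the difference between CD JZL184 and WT JZL184 was 0.35 and did not pass (edgeR adjusted p = 0.09).

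Kcnj2 encodes Kir2.1, the main pore of IK1. It had 34.6 and 47.5 CPM in WT VEH, 39.8, 25.4 and 41.5 CPM in WT JZL184, 29.7, 28.4 and 32.9 CPM in CD VEH and 36.0, 39.7 and 40.8 CPM in CD JZL184. The spread within WT VEH and WT JZL184 was wide, with SDs of 9.14 and 8.85 CPM, and WT JZL184 mouse B was the lowest of all mice. The CD VEH mice lay below all WT VEH and CD JZL184 mice. Kcnj2 passed the test in none of the 6 contrasts. CD VEH and WT VEH differed by -0.44 on the log2 scale (SE 0.18, edgeR adjusted p = 0.0844) and CD JZL184 and CD VEH by 0.36 (SE 0.16, edgeR adjusted p = 0.109). In a model of the compared groups alone, the adjusted p-values of these 2 differences were 0.0313 and 0.00716, and DESeq2 gave 0.046 for the first. With 1 mouse left out, the first difference ran from -0.65 to -0.19 and the second from 0.32 to 0.43.

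Kcnj3 and Kcnj5 encode Kir3.1 and Kir3.4, the subunits of the IKACh channel. Kcnj3 had 44.7 and 43.7 CPM in WT VEH, 32.3, 23.0 and 31.3 CPM in WT JZL184, 34.5, 38.8 and 30.9 CPM in CD VEH and 47.9, 47.5 and 46.1 CPM in CD JZL184. Kcnj5 had 71.5 and 68.6 CPM in WT VEH, 55.8, 41.7 and 51.2 CPM in WT JZL184, 50.8, 55.5 and 48.0 CPM in CD VEH and 70.9, 66.6 and 78.9 CPM in CD JZL184. For both genes the 5 mice of WT VEH and CD JZL184 lay above the other 6, and WT JZL184 mouse B was the lowest of all. In CD VEH against WT VEH, Kcnj5 was lower (-0.45 on the log2 scale, SE 0.11, edgeR adjusted p = 0.0139) and Kcnj3 stood at -0.35 on that scale without passing (SE 0.13, edgeR adjusted p = 0.0552). Under JZL184 in WT mice both were lower, by log2 fold-changes of -0.61 for Kcnj3 (SE 0.13, edgeR adjusted p = 0.00661) and -0.50 for Kcnj5 (SE 0.11, edgeR adjusted p = 0.00908). In CD JZL184 both were higher than in CD VEH, at 0.44 for Kcnj3 (SE 0.11, edgeR adjusted p = 0.0132) and 0.49 for Kcnj5 (SE 0.10, edgeR adjusted p = 0.00541). They were also higher in CD JZL184 than in WT JZL184, at 0.71 for Kcnj3 (SE 0.11, edgeR adjusted p = 0.00135) and 0.54 for Kcnj5 (SE 0.10, edgeR adjusted p = 0.00241). Without WT VEH mouse C, the adjusted p of WT JZL184 against WT VEH was 0.0565 for Kcnj3 and 0.075 for Kcnj5. For Kcnj5 between CD VEH and WT VEH it was 0.0987 without mouse C and 0.0587 without mouse D of WT VEH. Kcnj3 passed the test between CD VEH and WT VEH without CD VEH mouse C (0.0296), by DESeq2 (0.0304) and in a model of these groups alone (0.0239), and without CD VEH mouse E it did not pass between CD JZL184 and CD VEH (0.056).

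**Figure D2:**
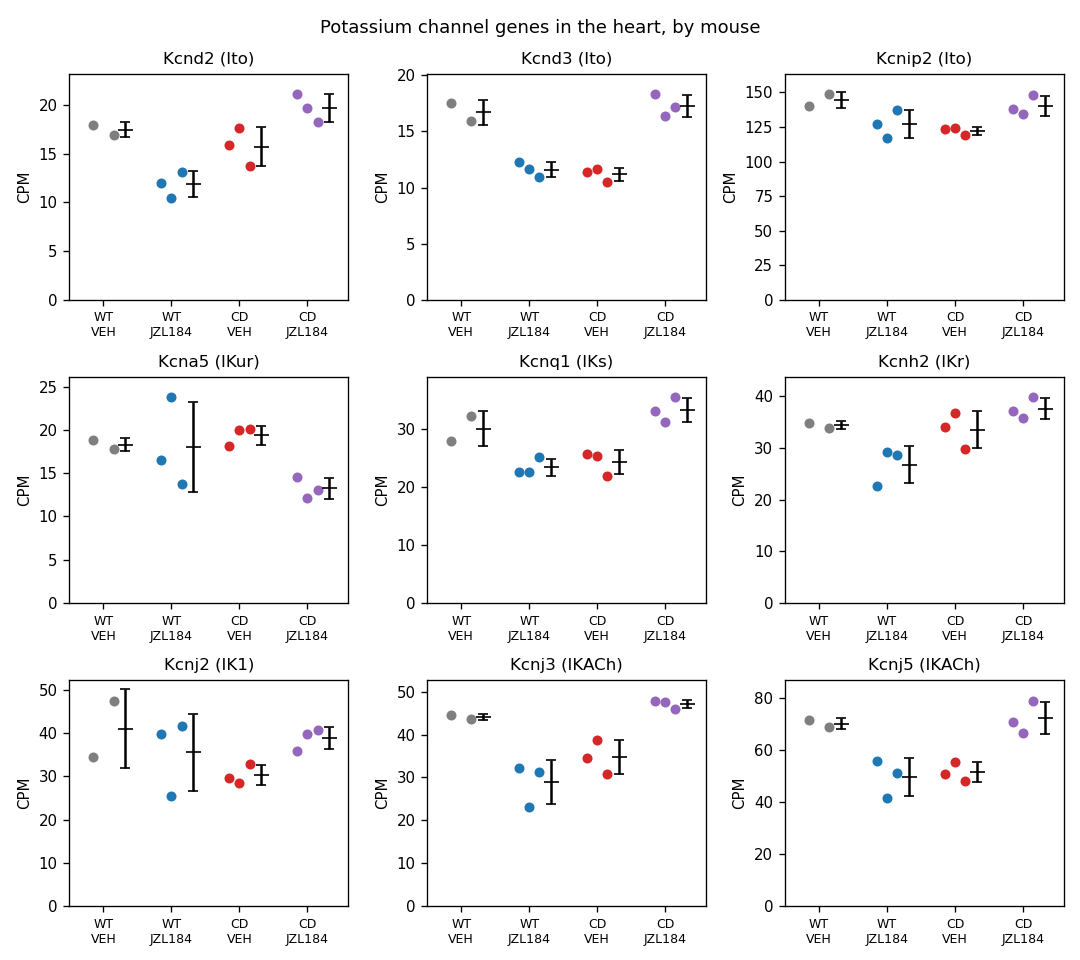
CPM of the 9 members (vertical axes from 0), with a point per mouse and, beside it, the mean and SD of each group of 2 or 3 mice. For Kcnd3, Kcnq1, Kcnj3 and Kcnj5 the WT VEH and CD JZL184 mice stood above all WT JZL184 and CD VEH mice, whereas Kcna5 was low in CD JZL184 at 12.2 to 14.5 CPM.

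The first comparison, CD VEH against WT VEH, asks what the deletion changes without the drug. Kcnd3, Kcnip2, Kcnq1 and Kcnj5 were lower, which is 4 of 9 members, and 0 were higher. Over all 11319 tested genes, 15.4% were lower and 15.0% higher. The groups did not overlap in 6 of 9 members and in 64.0% of all tested genes. The median log2 fold-change was -0.31 over the members and 0.0089 over all tested genes. All 9 members passed the filter on low counts. The count of members called was at most 6 over 15 alternatives. It fell furthest without WT VEH mouse C or D, without CD VEH mouse E and with scaling by cardiomyocyte markers. The count of all genes called fell in these fits too. Without CD VEH mouse E it was 1980 and with that scaling 1616, in place of 3438, and 2 members were called in each. Leaving out a WT VEH mouse leaves 1 mouse in that group.

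WT JZL184 set against WT VEH asks what the drug changes without the deletion. Kcnd2, Kcnd3, Kcnq1, Kcnh2, Kcnj3 and Kcnj5 were lower, 6 of 9 members, and 0 were higher, where 14.0% of all tested genes were lower and 15.4% higher. The groups did not overlap in 7 of 9 members and in 54.7% of all tested genes. The median log2 fold-change was -0.36 over the members and -0.0026 over all tested genes. The count of members called fell furthest without WT VEH mouse C. The count of all genes called fell there too, in a fit with a lone WT VEH mouse. The comparisons of CD VEH and of WT JZL184 with WT VEH share both WT VEH mice, so they are not independent of each other.

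Against CD VEH, CD JZL184 shows what the drug changes in the presence of the deletion. Kcnd2, Kcnd3, Kcnip2, Kcnq1, Kcnj3 and Kcnj5 were higher, 6 of 9 members, and Kcna5 was lower. Of all tested genes, 16.8% were higher and 17.0% lower. The groups did not overlap in 8 of 9 members and in 54.6% of all tested genes, and the median log2 fold-change was 0.36 and -0.0023. The count of 7 called members fell to 3 without CD VEH mouse E, where all genes called fell from 3832 to 2037. It fell to 4 without CD JZL184 mouse C, where 1475 of all tested genes were higher and 1537 lower.

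Between genotypes under the drug, in CD JZL184 against WT JZL184, Kcnd2, Kcnd3, Kcnq1, Kcnh2, Kcnj3 and Kcnj5 were higher, which is 6 of 9 members, and Kcna5 was lower. Higher and lower genes made up 18.2% and 20.1% of all tested genes. The groups did not overlap in 6 of 9 members and in 47.9% of all tested genes, and the median log2 fold-change was 0.51 and 0.00013. Between 6 and 8 members were called in the 16 alternatives.

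No member passed the test between CD JZL184 and WT VEH, the drug-treated deletion mice and the vehicle-treated wild type. By edgeR 0.0442% of all tested genes were higher and 0.141% lower, which is 21 genes, with 1059 at an unadjusted p under 0.05. DESeq2 called 104 genes and 0 members. Kcna5 had the lowest unadjusted p of the members (0.0189) and the largest difference, -0.47 (95% interval -0.84 to -0.09, edgeR adjusted p = 0.418). The other 8 log2 fold-changes lay between -0.08 for Kcnj2 and 0.17 for Kcnd2. The 95% interval was -0.13 to 0.22 for Kcnd3, -0.06 to 0.35 for Kcnq1, -0.20 to 0.29 for Kcnj5 and -0.48 to 0.31 for Kcnj2, and a difference within these intervals is not excluded. The groups did not overlap for Kcnd2, Kcnh2 and Kcnj3, which were higher in CD JZL184, and Kcna5. These are 4 of 9 members, beside 36.6% of all tested genes.

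**Figure D3:**
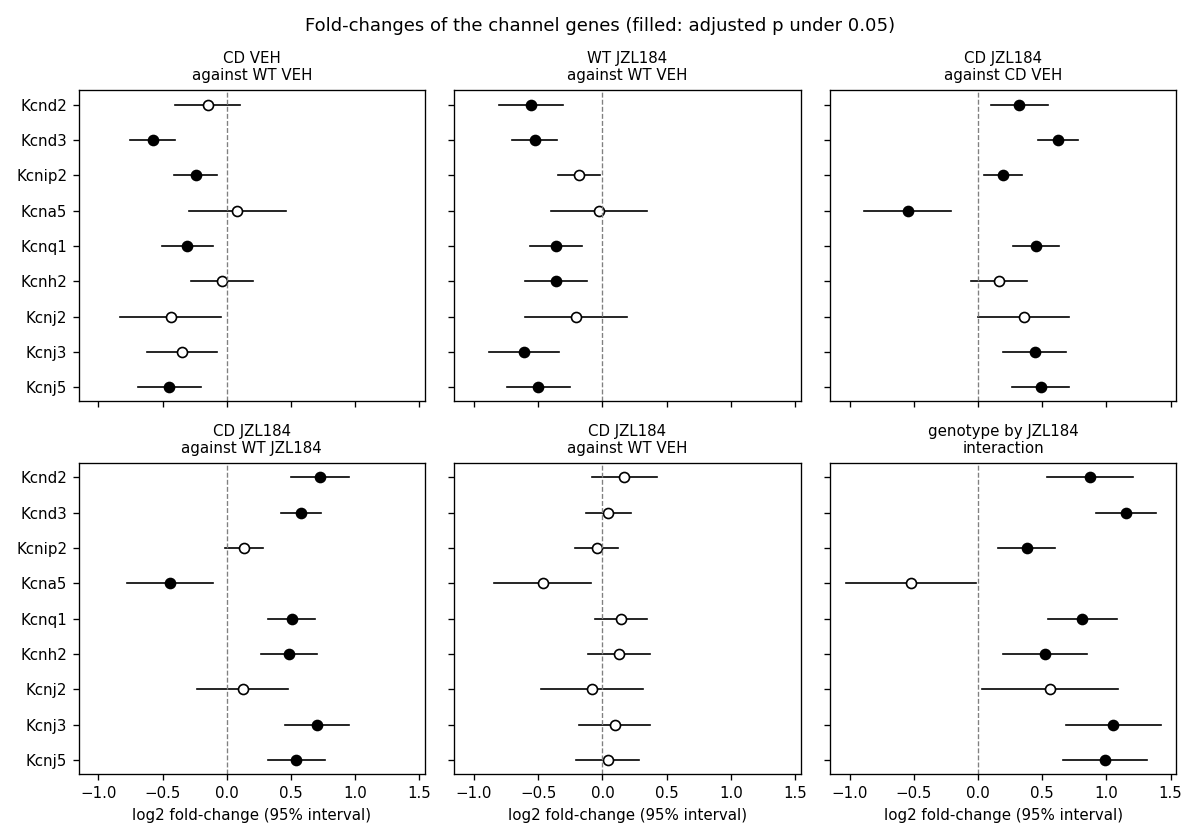
Log2 fold-change (horizontal axis) of each member in the 5 comparisons and in the interaction, with its 95% interval from edgeR, filled where the adjusted p was under 0.05. Most members lay below 0 in both comparisons of single factors with WT VEH, above 0 where CD JZL184 is set against CD VEH or WT JZL184, and around 0 where it is set against WT VEH.

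Whether the drug acted differently in the 2 genotypes was tested by the interaction term, the log2 fold-change under JZL184 in CD mice minus that in WT mice. It was above 0 and passed the test in 7 of 9 members and below 0 in 0, where 25.3% of all tested genes passed above 0 and 26.2% below. Kcnd3 had the largest term of the members, 1.15 (SE 0.11, edgeR adjusted p = 8.13e-05), followed by Kcnj3 with 1.05 (SE 0.17, edgeR adjusted p = 0.000527) and Kcnj5 with 0.99 (SE 0.15, edgeR adjusted p = 0.000406). The terms of Kcnd2, Kcnq1, Kcnh2 and Kcnip2 were 0.88, 0.81, 0.52 and 0.38. Kcnj2 had a term of 0.56 (SE 0.24, edgeR adjusted p = 0.0711) and Kcna5, alone below 0, one of -0.52 (SE 0.23, edgeR adjusted p = 0.0773). The median was 0.81 over the members and -0.0076 over all tested genes. In the 20 alternatives, 6 to 9 members were called. The term of Kcna5 passed in 2 of them, without WT JZL184 mouse D (-0.68, adjusted p = 0.0132) and with scaling by cardiomyocyte markers (-0.80, adjusted p = 0.0456). With 1 mouse left out, the term of Kcna5 ran from -0.68 to -0.27. The term of Kcnj2 passed without WT JZL184 mouse D (0.037), with DESeq2 (0.0405) and with the GC offset (0.0434), but not in most of the 20 alternatives. With 1 mouse left out, the term of Kcnj2 ran from 0.32 to 0.77. With scaling by cardiomyocyte markers, Kcnh2 (0.26, adjusted p = 0.351) and Kcnip2 (0.13, adjusted p = 0.39) did not pass.

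Subunits of the same channel were next compared by the ratio of their counts within a mouse, which no scaling factor affects. The ratio of Kcnd2 to Kcnd3 was 1.03 and 1.06 in WT VEH, 0.982, 0.899 and 1.21 in WT JZL184, 1.39, 1.51 and 1.30 in CD VEH and 1.15, 1.204 and 1.06 in CD JZL184. The CD VEH mice were above all other mice. In these mice Kcnd3 was low, while Kcnd2 overlapped WT VEH. The exact permutation test (two-sided) of CD VEH gave p = 0.1 against WT VEH and p = 0.1 against CD JZL184, the smallest p these group sizes allow, and 0.3 after adjustment over 15 tests of ratios. The ratio of Kcnip2 to the sum of Kcnd2 and Kcnd3 was 3.95 and 4.53 in WT VEH, 5.25, 5.31 and 5.71 in WT JZL184, 4.52, 4.23 and 4.92 in CD VEH and 3.51, 3.73 and 4.18 in CD JZL184. It was high in the WT JZL184 mice, which overlapped no other group. Against WT VEH the exact permutation p was 0.1 and the adjusted p was 0.3. The ratio of Kcnj3 to Kcnj5 was 0.625 and 0.637 in WT VEH, 0.579, 0.553 and 0.612 in WT JZL184, 0.680, 0.69985 and 0.643 in CD VEH and 0.676, 0.713 and 0.584 in CD JZL184. The WT JZL184 mice lay below the WT VEH mice and the CD VEH mice above them, without overlap, at an exact permutation p of 0.2 for each (0.375 adjusted), and the CD JZL184 mice overlapped all other groups. None of the 15 tests of ratios passed, and with these group sizes none could.

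**Figure D4:**
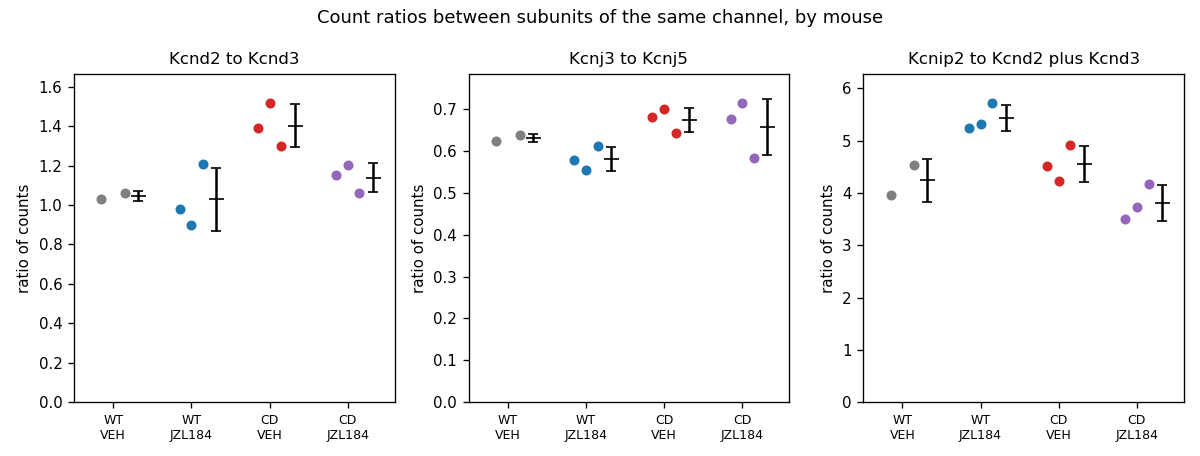
Ratio of counts between subunits of the same channel (vertical axes from 0), with a point per mouse and the mean and SD of each group. The ratio of Kcnd2 to Kcnd3 was 1.30 to 1.51 in CD VEH and at most 1.21 elsewhere, and that of Kcnip2 to the Kv4 genes was 5.25 to 5.71 in WT JZL184.

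How alike the members' patterns were was measured by the root mean square (RMS) difference of their centred log2 CPM over the 11 mice, as a description. Kcnd2 and Kcnj3 were the closest pair (0.10), followed by Kcnj3 and Kcnj5 (0.11), Kcnd3 and Kcnj5 (0.12) and Kcnq1 and Kcnj5 (0.13). Kcna5 was the farthest from the rest, at 0.37 from Kcnip2 and 0.55 from Kcnj3. The members' own RMS deviation from their mean ran from 0.11 for Kcnip2 to 0.32 for Kcnj3. Among all tested genes outside the members, Jmy (0.07) was most like Kcnd3, Pygb (0.05) and Usp9x (0.05) most like Kcnj5, and Cdh2 and Pde3a (0.08 each) most like Kcnj3. Pde3a was also among the closest to Kcnd2 (0.10), after Clip4 (0.10). The nearest genes to Kcnq1 were Inppl1 and Kcnj11 (0.07 each), to Kcnh2 Tut4 and Agbl5 (0.10 each), to Kcnip2 Kansl3 and Sec23ip (0.04 each) and to Kcnj2 Unc45b (0.11) and Dusp8 (0.13). Ifi205 (0.10) and S1pr1 (0.12) were nearest to Kcna5.

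Other genes of repolarisation were taken from 4 lists, of which 58 of 59 symbols were in the table and 29 passed the filter. In CD VEH against WT VEH 11 of the 29 were lower and 1 higher, and in WT JZL184 against WT VEH 11 were lower and 2 higher. In CD JZL184 15 were higher and 3 lower than in CD VEH, and 14 were higher and 3 lower than in WT JZL184. Their median log2 fold-changes in these comparisons were -0.22, -0.19, 0.31 and 0.24, against 0.0089, -0.0026, -0.0023 and 0.00013 over all tested genes. None passed between CD JZL184 and WT VEH. In CD VEH against WT VEH, 4 of the 29 were called without CD VEH mouse A and 5 without CD VEH mouse E. All genes called in these fits were 1931 and 1980, in place of 3438. Leaving out either WT VEH mouse, which leaves 1 in that group, lowered the calls among the 29 in both comparisons with WT VEH. It lowered those among all tested genes too. With scaling by cardiomyocyte markers, an alternative described with those markers, 3, 6, 8 and 10 of the 29 were called in the 4 comparisons, in place of 12, 13, 18 and 17.

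Of the 10 other pore genes tested, Kcnj12, which encodes the IK1 subunit Kir2.2, had 15.3 ± 1.33 CPM (SD, n = 2) in WT VEH, 10.9 ± 1.26 in WT JZL184, 12.0 ± 1.25 in CD VEH and 15.6 ± 0.868 (SD, n = 3 each) in CD JZL184. It passed the test in the same 4 comparisons as Kcnd3, with log2 fold-changes of -0.36 in CD VEH and -0.48 in WT JZL184 against WT VEH, and 0.39 and 0.51 for CD JZL184 against the CD VEH and WT JZL184 mice. Kcng2, a silent Kv subunit, and Kcnk3, the background channel TASK-1, also passed in these 4, at -0.27, -0.37, 0.40 and 0.50 for Kcng2 and -0.25, -0.33, 0.35 and 0.44 for Kcnk3. Kcnk6, another background channel, passed in the opposite directions, at 0.30, 0.47, -0.37 and -0.54. Kcnn2, a calcium-activated channel, was lower in WT JZL184 (-0.43) and higher in CD JZL184 than in CD VEH (0.36) and WT JZL184 (0.62). Kcna7 was lower in CD VEH (-0.48) and higher in CD JZL184 than in CD VEH (0.44). Kcna4, the slow transient outward pore of the septum, was below the filter at 1.22 CPM or less on average in each group.

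Of 4 accessory genes tested, Dpp10, a partner of Kv4 channels, was lower in CD VEH (-0.50, edgeR adjusted p = 0.0358) and WT JZL184 (-0.48, edgeR adjusted p = 0.0424) than in WT VEH. Kcne4, which inhibits Kv7.1, was lower in CD JZL184 than in CD VEH (-0.62, edgeR adjusted p = 0.0116) and WT JZL184 (-0.80, edgeR adjusted p = 0.0027). Kcne1, the IKs partner of Kcnq1, had 3.11 to 6.50 CPM over the 11 mice and passed in no comparison. Kcne2, described as a partner of ERG1, had at most 0.0281 CPM. Of 9 anchoring and trafficking genes, Ank2, Ank3 and Actn2, which encode ankyrin-B, ankyrin-G and alpha-actinin-2, passed in the same 4 comparisons as Kcnd3. Ank2 had 132 ± 7.43 CPM in WT VEH (SD, n = 2), 90.9 ± 6.07 in CD VEH and 127 ± 7.26 in CD JZL184 (SD, n = 3 each). Nedd4l, a ubiquitin ligase that acts on several channels, also passed in these 4, at -0.35, -0.24, 0.31 and 0.20. Akap9, the scaffold of IKs, was lower in CD VEH (-0.39) and WT JZL184 (-0.47) than in WT VEH and higher in CD JZL184 than in WT JZL184 (0.37). Flna went the other way, at 0.28 under JZL184 in WT mice and at -0.31 and -0.40 for CD JZL184 against the CD VEH and WT JZL184 mice, and Dlg1 was higher in the latter 2 (0.20 and 0.29). Of 6 transcription factors linked to the gradient of Ito across the wall, 0 passed in CD VEH or WT JZL184 against WT VEH. Irx4, Tbx5 and Nkx2-5 were higher in CD JZL184 than in CD VEH (0.35, 0.32 and 0.29) and WT JZL184 (0.35, 0.52 and 0.36). Irx5, known as a repressor of Kcnd2, had 2.27 to 3.89 CPM over the 11 mice and passed in no comparison.

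**Figure D5:**
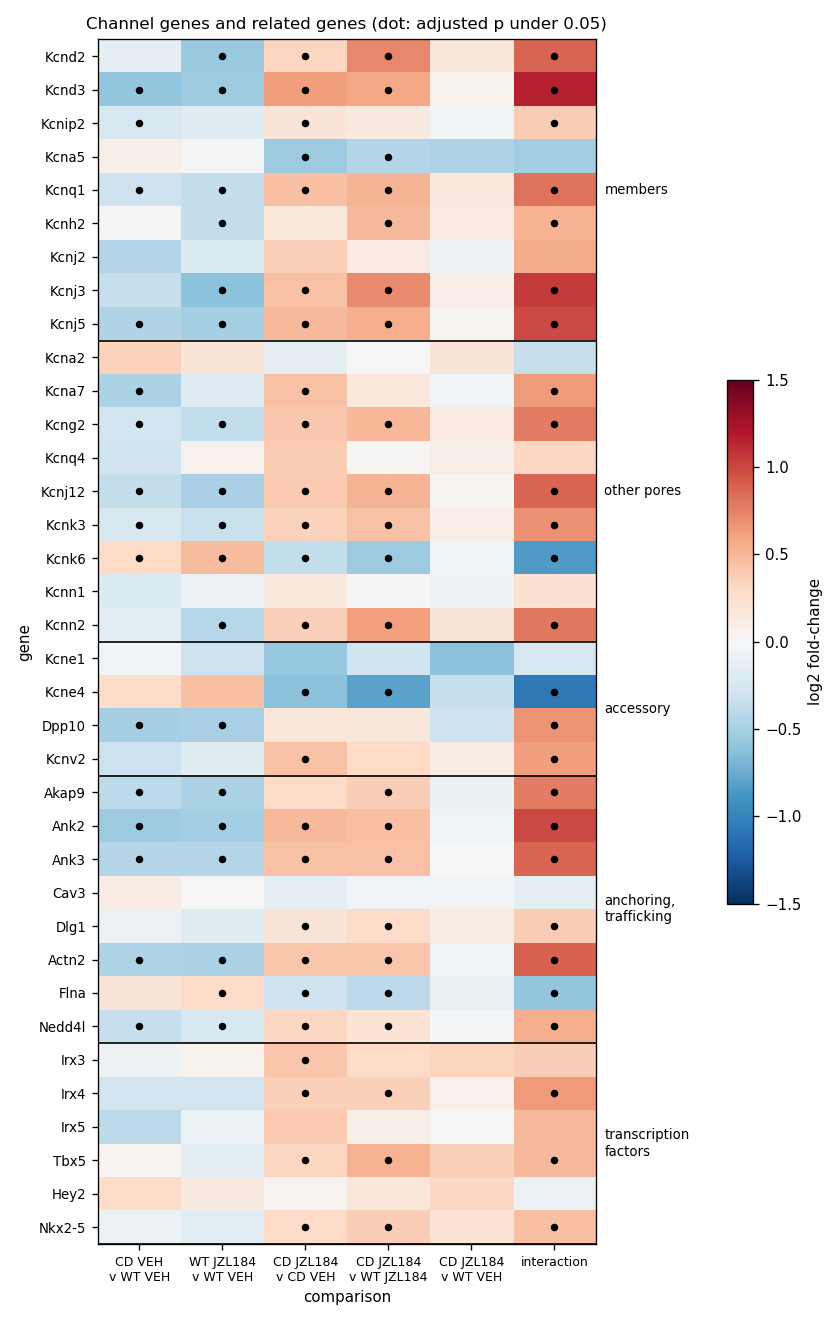
Log2 fold-change (colour, lower in blue and higher in red) of the 9 members and of other repolarisation genes tested (rows, by list) in the 5 comparisons and the interaction (columns), with a dot where the edgeR adjusted p was under 0.05. The members and the anchoring genes drawn shared the signs of the first 4 columns apart from Kcna5, Flna and Cav3, and the column of CD JZL184 against WT VEH held no dot.

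Markers of other cell types moved with the same groups. In whole tissue, fewer cells of a type and less RNA per cell cannot be told apart. The summed level of 5 endothelial markers was 484 to 491 CPM in WT VEH, 744 to 767 CPM in WT JZL184, 619 to 685 CPM in CD VEH and 477 to 560 CPM in CD JZL184. Fibroblast markers (5 genes) summed to 494 to 524, 665 to 816, 605 to 693 and 473 to 511 CPM in the same order, and smooth muscle and pericyte markers (6 genes) to 589 to 596, 846 to 911, 804 to 924 and 574 to 588 CPM. Macrophage markers (5 genes) summed to 83.0 to 87.1, 104 to 168, 109 to 134 and 76.9 to 86.3 CPM. These 4 sums were thus high in WT JZL184 and CD VEH, where 6 and 4 of the 9 members were lower than in WT VEH. Single genes made up most of 2 sums, with means in WT VEH of 451 CPM for Rgs5 (smooth muscle and pericyte) and 379 CPM for Dcn (fibroblast). In CD VEH against WT VEH, Acta2 (-0.15) and Col1a1 (-0.0022) were below 0 without passing, and all other markers of the 4 lists were above 0. In CD VEH against WT VEH 4 endothelial, 3 fibroblast, 4 smooth muscle and 4 macrophage markers were higher and 0 lower, while 5, 4, 5 and 4 were higher under JZL184 in WT mice. CD JZL184 mice had 4, 3, 3 and 4 of these markers lower than CD VEH mice, and 5, 4, 5 and 5 lower than WT JZL184 mice. Of the 5 nodal and conduction markers, which summed to 12.5 to 15.99 CPM in all mice, 2 passed the filter and they moved in opposite directions. Tbx3 was higher in CD VEH (0.50, edgeR adjusted p = 0.00854) and WT JZL184 (0.43, edgeR adjusted p = 0.0159) than in WT VEH. It was lower in CD JZL184 than in CD VEH (-0.46, edgeR adjusted p = 0.00608) and WT JZL184 (-0.39, edgeR adjusted p = 0.0102). Hcn4, a pacemaker channel gene, had 3.15 to 3.33 CPM in WT VEH, 1.70 to 2.87 in WT JZL184, 2.25 to 2.35 in CD VEH and 2.89 to 4.11 in CD JZL184, high and low in the same groups as Kcnj3 and Kcnj5. It was higher in CD JZL184 than in CD VEH (0.68, edgeR adjusted p = 0.0146) and WT JZL184 (0.71, edgeR adjusted p = 0.0101), and its differences of -0.50 and -0.53 from WT VEH did not pass. Adipocyte markers summed to at most 1.74 CPM, and 4 of 5 neuron and glia markers were under 2 CPM in every mouse.

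The 7 ventricular cardiomyocyte markers summed to 42680 to 44094 CPM in WT VEH, 32656 to 42286 in WT JZL184, 36964 to 39853 in CD VEH and 41300 to 42958 in CD JZL184. They did not move as 1 group. In CD VEH against WT VEH, Myh6 (-0.44, edgeR adjusted p = 0.0492) and Actc1 (-0.31, edgeR adjusted p = 0.0429) were lower and the other 5 did not pass, with Myl2 at 0.25 and Tnni3 at 0.24. In CD JZL184 against CD VEH, Myh6 (0.45) and Mybpc3 (0.40) were higher and Myl2 (-0.35) lower. Scaling each mouse by these 7 markers in place of TMM, an alternative added after the data were seen, moved the median of all tested genes to 0.13 in CD VEH and 0.17 in WT JZL184 against WT VEH, and to -0.08 and -0.12 for CD JZL184 compared with CD VEH and with WT JZL184, and to -0.26 in the interaction. With it, 2 members were called in CD VEH against WT VEH (Kcnd3 at -0.45, adjusted p = 0.0246, and Kcnj5 at -0.32, adjusted p = 0.034), beside 412 of all tested genes lower and 1204 higher. Under JZL184 in WT mice Kcnd2, Kcnd3, Kcnj3 and Kcnj5 were lower, beside 242 genes lower and 1978 higher. In CD JZL184 against CD VEH, Kcnd3, Kcnq1, Kcnj3 and Kcnj5 were higher and Kcna5 lower, beside 546 genes higher and 1274 lower. Against WT JZL184 Kcnd2 was also among the higher members, which made 5 with Kcna5 again lower, beside 540 genes higher and 2390 lower. The interaction was above 0 in the same 5 members and below 0 in Kcna5, beside 965 genes above and 3842 below. Kcnd3, Kcnj3 and Kcnj5 kept interaction terms of 0.91, 0.82 and 0.75. The part of the other cell types in the members' differences was not tested beyond this scaling.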

How the data were processed

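RNA from the ventricles of 11 male mice in 4 groups was sequenced, and groups were taken from the sample labels. The authors deposited estimated counts for each gene without normalization, from Salmon 0.7.2 (build mm10 per the labels, Ensembl annotation of GRCm38) and tximport. Each column is named by group and by a letter found in no label, and the number of columns without a group was 0. After rounding, edgeR 4.0.16 (on R 4.3.3, with limma 3.58.1) was run with its quasi-likelihood test and TMM factors. All 4 groups entered 1 model without covariates, in which 11319 genes at or above an average log2 CPM of 1 were tested with Benjamini-Hochberg adjustment, and an adjusted p-value under 0.05 was a call. The common biological coefficient of variation was 9.13%. Standard errors were derived from the log2 fold-change and its F statistic. No transcript lengths from tximport were used, so changes in isoform usage are not corrected for. Levels per kb use the longest coding transcript of GENCODE mouse release M21, in place of the planned median, which for Kcnq1 is a partial model. GENCODE identifiers matched 22238 of the 22608 genes, 16070 of them with the same version.

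Alternatives were DESeq2 1.42.0, RLE and upper-quartile factors, no filter, a minimum of 10 counts per mouse, a model of the compared groups alone, no mitochondrial genes, loess offsets (span 0.5) for transcript length and GC content, leaving out each mouse and, added after seeing the data, scaling by cardiomyocyte markers, leaving out each mouse for the ratios and a block on column letters in the CD mice. On simulated counts for CD VEH against WT VEH (11319 genes, 200 changed by 1 on the log2 scale), 98.5% of the changed genes were recovered by edgeR (4.37% of calls were false) and 98.5% by DESeq2 (14.3% false). No member differed by so much between 2 groups, so these rates do not describe differences of the members' size. Patterns were compared on log2 CPM with a prior count of 2. A floor of 3 counts corresponds to 0.0306 to 0.0435 CPM, and counting error gave each member's value a coefficient of variation of 0.872% to 3.67%, which covers counting error only. The members and gene lists were chosen with earlier results of these data known. All members are named. Genes of the 4 other lists are named where they were called in at least 2 of the 5 comparisons between groups or where their role is given beside a member, and the 2 most alike tested genes are named for each member. Some genes that this rule names are not reported here, in the text or in the plot of related genes, though they remain in the counts.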

Additional observations from a re-analysis of the deposited data

Results flagged for a closer look

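The change under JZL184 differed between genotypes for 7 members, by edgeR's test of the interaction term over all genes, where 25.3% of all tested genes passed above 0 and 26.2% below. On the log2 scale, the change in CD mice minus that in WT mice was 1.15 for Kcnd3, 1.05 for Kcnj3, 0.99 for Kcnj5, 0.88 for Kcnd2, 0.81 for Kcnq1, 0.52 for Kcnh2 and 0.38 for Kcnip2. All but the last 2 remained past the threshold in each of the 20 alternatives. With scaling by cardiomyocyte markers, Kcnh2 had 0.26 (adjusted p = 0.351) and Kcnip2 0.13 (adjusted p = 0.39). No group has 4 or more mice, so single mice far from their group were not tested for.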

How the results depend on the processing

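The columns of the count table carry none of the replicate numbers of the labels, but letters, of which A, C and E recur in both CD groups. No source used here says that a shared letter marks a pair, and deviations from the group means of same-letter mice correlated at 0.0358, -0.102 and -0.00155 across genes. In the CD mice alone, a replicate block on letters, added after seeing the data, gave 8 members, 19 other repolarisation genes and 4023 genes called by edgeR in CD JZL184 against CD VEH (8, 20 and 4691 without the block), and no member's call differed between these 2 fits. Aside from that block, of 873 member values under alternatives, 789 kept direction and side of the threshold, 52 lost a call, 16 gained one and 16 changed sign, all 16 without a call. Leaving out 1 mouse at a time, where a lone WT VEH mouse is assumed to vary like the other groups, gave 1 to 5 members called in CD VEH against WT VEH, 2 to 7 in WT JZL184 against WT VEH and 3 to 6 in CD JZL184 against CD VEH. Other repolarisation genes called ran from 0 to 14 and from 0 to 13 in the first 2 of these. All genes called ran from 386 to 3541, from 558 to 4484 and from 2037 to 3911, and from 12 to 19 in CD JZL184 against WT VEH, where DESeq2 called 104 and the compared groups alone 88, with 1 other repolarisation gene. With the compared groups alone, WT JZL184 against WT VEH had 1650 genes and 6 other repolarisation genes. Scaling by cardiomyocyte markers gave 2 members, 3 other repolarisation genes and 1616 genes in CD VEH against WT VEH, 6 other genes in WT JZL184 against WT VEH, 8 other genes and 1820 genes in CD JZL184 against CD VEH, 10 other genes in CD JZL184 against WT JZL184, 10 genes in CD JZL184 against WT VEH and 12 other genes in the interaction. Its calls were split 1204 higher to 412 lower in CD VEH against WT VEH (1693 to 1745 in the reported fit), 1978 to 242 in WT JZL184 against WT VEH (1747 to 1582), 546 to 1274 in CD JZL184 against CD VEH (1907 to 1925), 540 to 2390 against WT JZL184 (2056 to 2276) and 965 to 3842 in the interaction (2868 to 2965). Upper-quartile factors split the first 3 into 2154 to 1346, 2076 to 1167 and 1590 to 2213.

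No value that changed sign passed the test on either side. Kcnh2 in CD VEH against WT VEH was at 0.0084 with upper-quartile factors, 0.0028 with the length offset, 0.091 with marker scaling and -0.11 to 0.040 with 1 mouse left out. Kcna5 in WT JZL184 against WT VEH was at 0.016 with upper-quartile factors, 0.17 with marker scaling and -0.27 to 0.14 with 1 mouse left out. In CD JZL184 against WT VEH, Kcnj2 was at 0.0090 with the GC offset and Kcnip2 at 0.0021 with marker scaling, and with 1 mouse left out the ranges were -0.29 to 0.17 for Kcnj2, -0.020 to 0.12 for Kcnd3 and -0.027 to 0.10 for Kcnj5. Kcnj2 ran from -0.066 to 0.25 in CD JZL184 against WT JZL184 and from -0.42 to 0.041 in WT JZL184 against WT VEH. With 1 mouse left out, the difference in the ratio of Kcnd2 to Kcnd3 changed sign in WT JZL184 against WT VEH, as did that of Kcnj3 to Kcnj5 in CD JZL184 against each VEH group, all by less than the SD between mice, and the other differences in ratios kept their direction. The cause of these shifts was not tested. WT VEH has 2 mice, and the counts of calls against it depend on both.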
